A study of Mus musculus with 9 samples.

Results

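The AIM2-like p200 genes are 8 mouse genes of 1 family of interferon-inducible DNA sensors: Ifi203, Ifi204, Ifi207, Ifi209, Ifi211, Ifi213, Aim2 and Mndal. They were taken by symbol from the 55401 genes of the count tables, and all 8 were found. Of these, 7 passed the filter on low counts and were tested among 18514 genes; Ifi213 had too few reads. The 7 that passed were above the filter's level in the saline libraries as well. The RNA came from the calf's gastrocnemius in FVB mice of the wild type, 2 to 3 months old, and the muscle was taken 7 weeks after injection. AAV-GFP-MBNL1∆ is an adeno-associated virus vector for a form of the splicing factor MBNL1 that, by the series title, serves as a decoy protein for the expanded CUG repeats of myotonic dystrophy. AAV-GFP is the control vector for green fluorescent protein, and saline is the injection without a vector, with 3 libraries in each of the 3 groups. Mice of every group were wild type. The labels give neither the promoter of the vectors nor their dose, and do not say whether libraries came from separate animals, so that the p-values speak to variation among libraries, which may be technical.

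Proteins of this family bind DNA through a C-terminal HIN domain, and most carry an N-terminal pyrin domain that binds other pyrin proteins. AIM2 detects double-stranded DNA in the cytosol and recruits the adaptor ASC (Pycard) and caspase-1 (Casp1) into an inflammasome, which matures interleukin 1 beta and interleukin 18 and opens gasdermin D pores. IFI204, often treated as the mouse counterpart of human IFI16, is placed upstream of the adaptor STING (Tmem173 in these tables) and type I interferon, and the genes themselves are transcribed more under interferon. They are known mainly from macrophages and lymphocytes, and adeno-associated virus vectors bring DNA into the nucleus of the cells they enter.

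The genes lie side by side in a cluster on chromosome 1. Aim2 spans chr1:173350879-173466040 in mm10 on the plus strand and Ifi203 chr1:173920407-173942672 on the minus strand. Ifi213, Ifi209, Ifi207, Ifi204, Mndal and Ifi211 start in this order between these positions. The tables also hold 6 other p200 genes of the cluster, Ifi202b, Ifi205, Ifi206, Ifi208, Ifi214 and the pseudogene Ifi203-ps. Copies of the family are alike in sequence, so a read can fit several of them. Of all 50-base stretches in its annotated transcripts, Ifi211 shared 72.8% with another p200 gene, 44.7% with Ifi205 and 30.1% with Ifi204. Ifi209 shared 33.4%, all with Ifi214, Ifi204 shared 19.2%, Mndal 17.7%, Ifi213 15.6%, Ifi203 12.2% and Ifi207 5.39%, while Aim2 shared 0%. With 100-base stretches Ifi211 still shared 56.9% and Ifi203 2.84%. The pseudogene Ifi203-ps shared 24.3% of its 50-base stretches with Ifi203, which are 8.85% of those of Ifi203. Exons of Mndal overlapped those of other genes on the same strand over 155 bases (4.27% of its exon length), 37 of them with Ifi203. Reads that fitted several places equally well were 10.5% to 13.3% of all reads and were not counted for any gene. The levels of Ifi211 in particular, and of Ifi209, Ifi204, Mndal and Ifi203-ps to a lesser degree, are therefore uncertain. The mm10 assembly is of C57BL/6J mice, whereas these mice were FVB, and the content of this cluster is known to vary between strains.

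**Figure D1:**
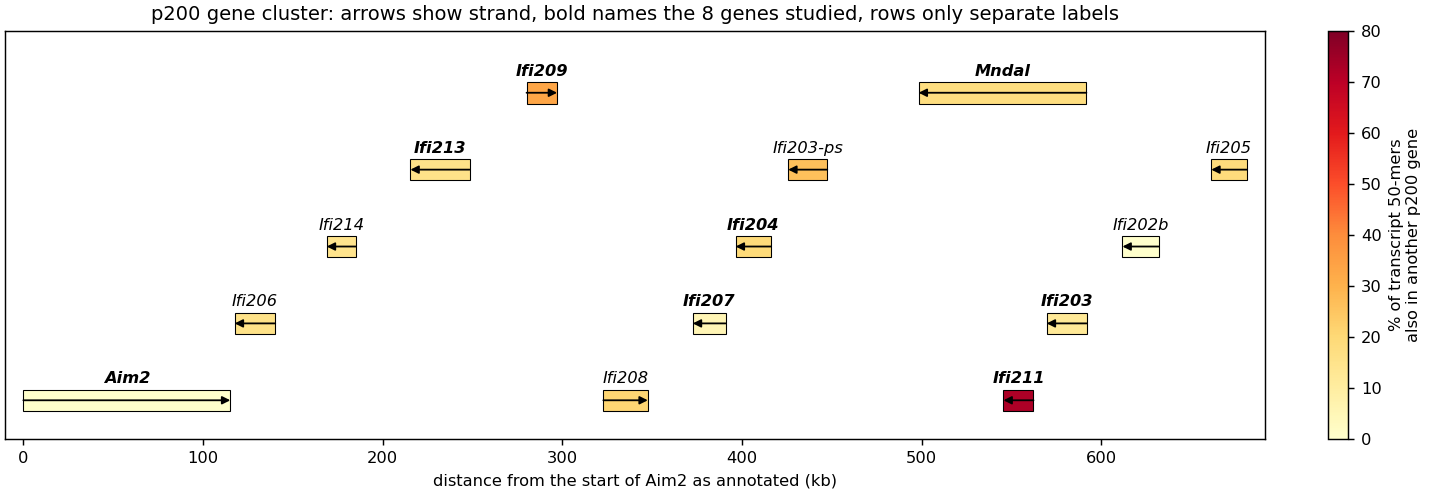
Position of the 14 p200 genes along chromosome 1, in kb from the annotated start of Aim2, with arrows for the strand and colour for the percentage of 50-base transcript stretches found in another p200 gene. Ifi211 is the darkest at 72.8% and Aim2 shares 0%.

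The promoters of most members hold the core of an interferon-stimulated response element (ISRE), the DNA motif bound by interferon regulatory factors. It was searched as GAAA, any 2 bases and GAAA again, on both strands, from 250 bases before to 50 bases after the start site, in the RefSeq promoters of GRCm38.p6. A match was found in 1131 of 32851 promoters (3.44%), and counted by gene the share was 3.99%. Among members, 7 have a promoter in that table (none is listed for Ifi204) and 5 of the 7 held a match, Ifi203, Ifi207, Ifi211, Ifi213 and Mndal. Another listed promoter of Ifi203 (chr1:173942623-173942922) held none. Of the 5 other p200 genes with a promoter, 4 held one. Levels of every member, with or without a match, were higher in each AAV-GFP library than in any saline library. The windows of 4 of these 5 members are shown, with the match in capitals and 20 bases either side, on the strand of the gene:
Ifi203 (chr1:173942498-173942547, minus strand): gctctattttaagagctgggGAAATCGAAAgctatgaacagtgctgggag
Ifi207 (chr1:173741821-173741870, minus strand): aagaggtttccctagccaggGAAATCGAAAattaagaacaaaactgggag
Ifi211 (chr1:173913054-173913103, minus strand): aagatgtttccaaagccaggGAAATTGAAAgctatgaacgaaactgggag
Ifi213 (chr1:173599316-173599365, minus strand): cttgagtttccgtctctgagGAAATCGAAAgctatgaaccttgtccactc
The first base of the match lay 35 bases before the start site in Ifi203, 41 in Ifi207, 37 in Ifi211 and 73 in Ifi213. The window of Mndal (chr1:173880194-173880243) was identical to that of Ifi203 in 50 of 50 bases, and that of Ifi207 to that of Ifi203 in 32 of 50. The form GAAATCGAAA stood in 7 p200 genes, 4 of them members, and GAAATTGAAA in 2. Aim2 and Ifi209 had no match; their bases from 250 to 51 before the start site are shown for comparison, with the stretch of Ifi209 nearest to GAAATCGAAA in capitals:
Aim2 (chr1:173420354-173420553, plus strand): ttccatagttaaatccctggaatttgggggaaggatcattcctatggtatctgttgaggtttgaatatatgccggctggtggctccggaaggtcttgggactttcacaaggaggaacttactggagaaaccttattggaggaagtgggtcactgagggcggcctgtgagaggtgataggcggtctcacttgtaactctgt
Ifi209 (chr1:173630609-173630808, plus strand): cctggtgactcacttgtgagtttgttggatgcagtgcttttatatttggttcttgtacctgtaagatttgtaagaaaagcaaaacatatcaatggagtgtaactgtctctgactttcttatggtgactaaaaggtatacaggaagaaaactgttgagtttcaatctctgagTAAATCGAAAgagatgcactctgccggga
The stretch in Ifi209 differed from GAAATCGAAA by G1T (the family's core has G at position 1, counted from its 5′ end, and Ifi209 has T). On the gene's own strand, the nearest stretches of the Aim2 promoter differed from it by 4 substitutions, and 0.691% of all promoters came within 1 substitution. A match is a run of letters in the reference and not a measured binding site.

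The 9 libraries held 44603618 to 76970849 counts assigned to genes. AAV-GFP 2 stood apart from the rest, where the 10 most abundant genes took 17.7% of counts, compared with 23.6% to 27.7% in the other 8. Xist, the X-linked RNA of female cells, was at 0.0182 to 0.0902 CPM (read counts scaled to library size) in AAV-GFP-MBNL1∆, 106 to 136 CPM in AAV-GFP and 105 to 130 CPM in saline, and the Y-linked Ddx3y was at 82.7 to 84.6 CPM in AAV-GFP-MBNL1∆, 0.487 to 2.58 CPM in AAV-GFP and 0.409 to 0.693 CPM in saline. Sex and the decoy vector cannot be told apart in any comparison with AAV-GFP-MBNL1∆. In whole muscle, fewer cells of a type and less RNA per cell cannot be told apart either.

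Per length, Ifi203 and Ifi207 had the highest mean levels of the 8 in every group. In AAV-GFP-MBNL1∆ muscle Ifi203 at 1.81 and Ifi207 at 1.78 CPM per kb of exon (means of 3 libraries) overlapped in first place, followed without overlap by Ifi204 at 1.14 CPM per kb. In AAV-GFP muscle Ifi207 led at 4.51 CPM per kb, Ifi203 had 3.86 CPM per kb, and each neighbour in the order overlapped the next down to Mndal at 0.369 CPM per kb. In saline muscle Ifi203 led at 2.79 CPM per kb, followed by Ifi207 at 1.31, Ifi204 at 0.855, Aim2 at 0.364 and Ifi211 at 0.302 CPM per kb, and no neighbours in this order overlapped over their libraries. Mndal at 0.129 and Ifi209 at 0.121 CPM per kb overlapped in saline. Ifi209 stood above Ifi211 and Mndal in AAV-GFP, at 1.63 CPM per kb, but below both in saline. Ifi213 was last in all groups, at 0.0101 CPM per kb in AAV-GFP-MBNL1∆, 0.0262 in AAV-GFP and 0.00134 in saline, and had no read in saline 2.

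The comparison of AAV-GFP with saline asks what the control vector brings to normal muscle. Every p200 gene among the 8 was higher in all 3 AAV-GFP libraries than in any saline library. Among the 7 tested genes the fold ran from 1.38 for Ifi203 to 13.4 for Ifi209. The size differed between the AAV-GFP libraries, with AAV-GFP 2 highest and AAV-GFP 3 lowest for each gene. None of the 7 tested genes passed the test at an adjusted p under 0.05 (edgeR's quasi-likelihood test, Benjamini-Hochberg), and neither did any other gene (0% of 18514).

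Aim2, the sensor of the inflammasome, was at 4.61, 13.7 and 1.82 CPM in AAV-GFP 1, 2 and 3, against 1.24, 1.17 and 1.42 CPM in saline 1, 2 and 3. This is a log2 fold change of 2.40 with an SE of 0.63 (adjusted p = 0.0991). The lowest AAV-GFP library thus lay above the highest saline library, though by less than the gap between any pair of AAV-GFP libraries.
Ifi204, the IFI16-like member, was at 9, 24.3 and 4.03 CPM in AAV-GFP, against 3, 3.21 and 2.93 CPM in saline (log2 fold change 2.04, SE 0.55, adjusted p = 0.105). Ifi207, a nuclear pyrin and HIN protein, was at 12.8, 26.9 and 6.71 CPM in AAV-GFP, against 4.61, 4.6 and 4.25 CPM in saline (1.79, SE 0.45, adjusted p = 0.0924). In both genes the 3 saline libraries lay close together and the AAV-GFP libraries were spread widely.
Ifi209, a less studied member, was at 3.66, 12.6 and 1.06 CPM in AAV-GFP, against 0.361, 0.379 and 0.546 CPM in saline (3.75, SE 0.81, adjusted p = 0.0841). Ifi211, whose reads are the most shared, was at 1.56, 3.61 and 0.775 CPM in AAV-GFP, against 0.534, 0.591 and 0.494 CPM in saline (1.89, SE 0.48, adjusted p = 0.0914). Mndal, named for human MNDA, was at 1.14, 2.21 and 0.664 CPM in AAV-GFP, against 0.39, 0.439 and 0.572 CPM in saline (1.53, SE 0.40, adjusted p = 0.0942). The groups did not overlap in any of the 3 genes.
Ifi203, the most abundant member in saline, was at 24.3, 32 and 21.4 CPM in AAV-GFP, against 17.9, 18.2 and 20.1 CPM in saline, with the smallest fold change of the 7 (0.47, SE 0.15, adjusted p = 0.143). Ifi213 had 11, 23 and 4 counts in AAV-GFP, against 1, 0 and 1 in saline, a ratio of 20.9 with a 95% counting interval of 5.4 to 179. That interval covers counting error only and not the spread between libraries.

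**Figure D2:**
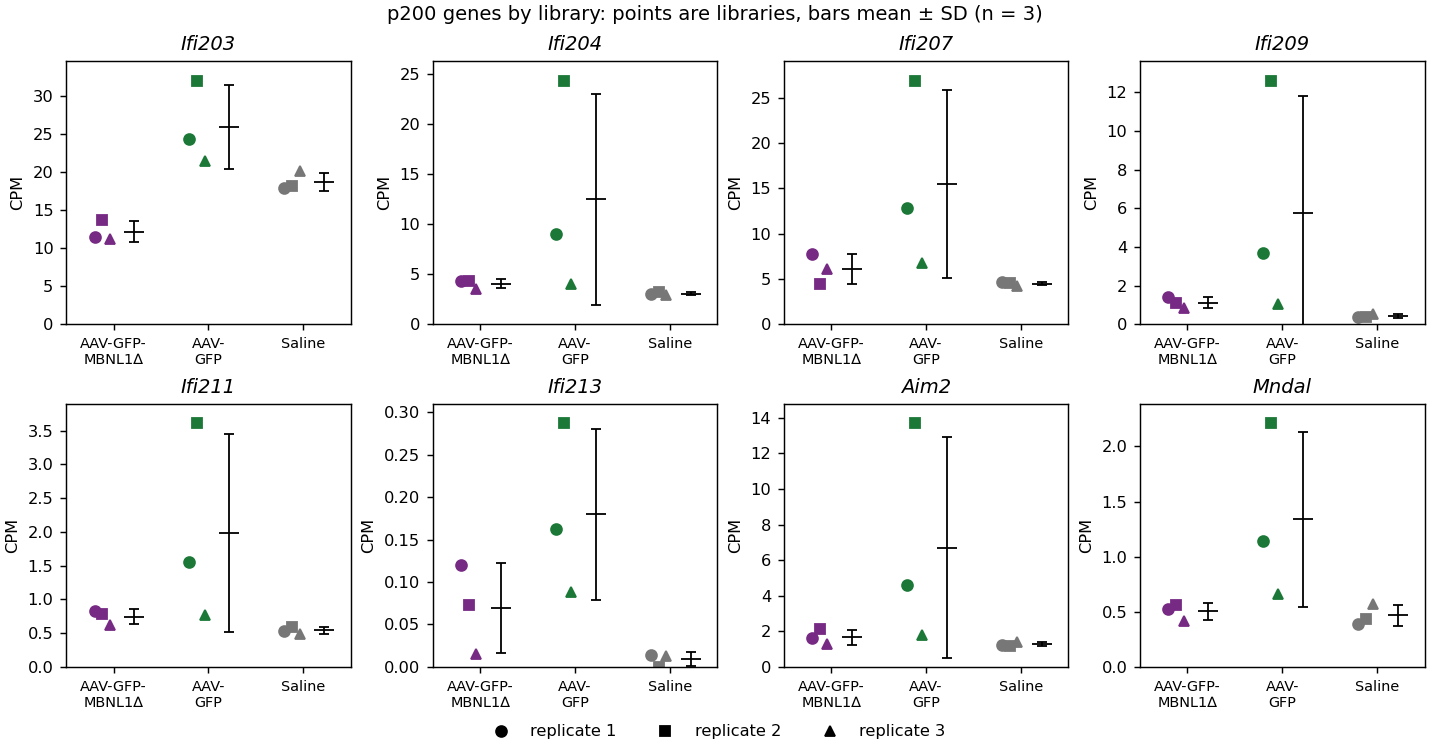
Level of each of the 8 genes in CPM (vertical axes, each on its own scale from 0), with a point for each library, a marker shape for each replicate number and a bar for the mean ± SD of each group (n = 3); the lower end of the bar for Ifi209 in AAV-GFP lies below 0 and is not drawn. AAV-GFP 2 is the highest point in every panel, at 32 CPM for Ifi203 and 13.7 CPM for Aim2, and Ifi203 is the gene whose AAV-GFP-MBNL1∆ libraries, at 11.2 to 13.7 CPM, lie below all saline libraries.

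Over the 7 tested genes the median log2 fold change for AAV-GFP against saline was 1.89, beside −0.01 over all genes tested. Without AAV-GFP 2 the median of the 7 was 1.10, with log2 fold changes of 0.26 for Ifi203, 0.93 for Mndal, 1.08 for Ifi204, 1.10 for Ifi207 and Ifi211, 1.32 for Aim2 and 2.44 for Ifi209. All 7 had groups that did not overlap, beside 14.7% of genes that were higher in this way. At an unadjusted p under 0.05 all 7 were higher and 0 lower, beside 15.6% and 6.35% of genes. DESeq2 called 6 of them (not Ifi203), beside 1705 genes in all (9.21%), and limma-voom called 0 of them. The weighted form of limma-voom, in which noisier libraries count less, called 7, beside 29.5% of all genes. Leaving out AAV-GFP 3, the library nearest to saline, brought all 8 past the threshold, with an adjusted p of 0.0194 for Ifi203, 0.00885 for Ifi213 and 0.00173 to 0.00473 for the others, beside 17.1% of all genes called in that fit, whereas without AAV-GFP 2 none of the 7 then tested passed.

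The other p200 genes of the cluster gave similar values apart from the pseudogene. Ifi202b, whose protein lacks a pyrin domain and inhibits AIM2, was at 11.1, 31.7 and 5.34 CPM in AAV-GFP, against 2.94, 3.35 and 3.2 CPM in saline (log2 fold change 2.35, adjusted p = 0.0862). Ifi205 was at 18.1, 38.1 and 7.64 CPM in AAV-GFP, against 7.15, 7.69 and 6.23 CPM in saline (1.60, adjusted p = 0.13), with groups that overlapped. Ifi208 and Ifi214 had log2 fold changes of 3.06 and 3.05 (adjusted p = 0.0862 and 0.0984). Without AAV-GFP 2 the log2 fold changes were 1.35 for Ifi202b, 0.86 for Ifi205, 2.35 for Ifi208 and 1.87 for Ifi214. Ifi206 had 34 counts over the AAV-GFP libraries and 0 over the saline libraries, at least 12.5-fold higher with a floor of 3 counts over the group. Ifi203-ps was at 11.7, 10.2 and 11.9 CPM in AAV-GFP, against 10.8, 10 and 12.1 CPM in saline. The log2 fold change of 0.04 (95% interval −0.29 to 0.36, adjusted p = 0.884) turned its sign with upper quartile scaling and without saline 2.

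The comparison of AAV-GFP-MBNL1∆ with saline asks what the decoy vector brings to normal muscle. Ifi203 fell to 12.1 ± 1.35 CPM in AAV-GFP-MBNL1∆, against 18.7 ± 1.22 CPM in saline (SD, n = 3 each), and was the only one of the 7 tested genes to pass the test. The pseudogene Ifi203-ps fell as well. The other 6 tested genes had log2 fold changes of 0.10 to 1.37 and did not pass.

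Ifi203 was at 11.5, 13.7 and 11.2 CPM in AAV-GFP-MBNL1∆ 1, 2 and 3, below the saline range of 17.9 to 20.1 CPM. On the log2 scale it fell by 0.63 (SE 0.15, 95% interval −0.97 to −0.28, adjusted p = 0.0353). That made 1 of 7 called, beside 9.37% of genes called in either direction and 4.6% called lower. The call held in 11 of 18 alternative settings with log2 fold changes of −0.72 to −0.57. It was lost without any 1 of the saline libraries, any 1 of the AAV-GFP-MBNL1∆ libraries or AAV-GFP 1 (adjusted p 0.058 to 0.131).
Ifi203-ps was at 5.28, 7.47 and 6.92 CPM in AAV-GFP-MBNL1∆, below the saline range of 10 to 12.1 CPM, and fell by 0.74 on the log2 scale (SE 0.14, adjusted p = 0.017). The call was lost without saline 1, saline 3 or AAV-GFP-MBNL1∆ 3 (adjusted p up to 0.0654). These are the 2 p200 genes called in this comparison, and they share sequence, so part of their reads cannot be assigned to 1 of them.
Ifi204 was at 4.32, 4.31 and 3.54 CPM in AAV-GFP-MBNL1∆, against 2.93 to 3.21 CPM in saline, without overlap (log2 fold change 0.41, 95% interval −0.81 to 1.64, adjusted p = 0.678). Ifi209 was at 1.4, 1.11 and 0.839 CPM in AAV-GFP-MBNL1∆, against 0.361 to 0.546 CPM in saline, also without overlap (1.37, 95% interval −0.41 to 3.15, adjusted p = 0.309). Ifi211 was at 0.827, 0.782 and 0.614 CPM in AAV-GFP-MBNL1∆, against 0.494 to 0.591 CPM in saline (0.46, adjusted p = 0.599). These 3 genes were the tested members higher in all 3 libraries, beside 22.7% of genes, and Ifi203 was the tested member lower in all 3, beside 20%.
Aim2 was at 1.61, 2.11 and 1.29 CPM in AAV-GFP-MBNL1∆, overlapping the saline range of 1.17 to 1.42 CPM (0.38, adjusted p = 0.744). Ifi207 was at 7.71, 4.46 and 6.1 CPM in AAV-GFP-MBNL1∆, against 4.25 to 4.61 CPM in saline (0.44, adjusted p = 0.574), and Mndal at 0.526, 0.564 and 0.419 CPM, against 0.39 to 0.572 CPM (0.10, adjusted p = 0.908). Both overlapped. Ifi213 had 8, 4 and 1 counts in AAV-GFP-MBNL1∆, against 1, 0 and 1 in saline, a ratio of 7.33 (95% counting interval 1.66 to 66.9).

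The median log2 fold change of the 7 was 0.41 for AAV-GFP-MBNL1∆ against saline, beside 0.02 over all genes. A fit of these groups alone, without the widely spread AAV-GFP libraries, called 3 members, beside 25.7% of all genes: Ifi203 lower, and Ifi204 (log2 fold change 0.39, adjusted p = 0.0453) and Ifi209 (1.35, adjusted p = 0.0052) higher.

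The comparison of AAV-GFP-MBNL1∆ with AAV-GFP sets the decoy against a vector without it. All 7 tested members had log2 fold changes below 0, from −2.38 for Ifi209 to −1.09 for Ifi203. Ifi203 and Mndal passed the test as lower with the decoy, 2 of 7 beside 21.1% of genes called in either direction and 10.3% called lower. These comparisons share libraries, so the values below are no independent repeat of those against saline.

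Ifi203 was at 11.2 to 13.7 CPM in AAV-GFP-MBNL1∆ and 21.4 to 32 CPM in AAV-GFP, without overlap, and fell by 1.09 on the log2 scale (SE 0.15, 95% interval −1.44 to −0.75, adjusted p = 0.00379). This call held in 18 of 18 alternative settings, with log2 fold changes of −1.24 to −0.90 and adjusted p up to 0.0267. Mndal was at 0.419 to 0.564 CPM in AAV-GFP-MBNL1∆ and 0.664 to 2.21 CPM in AAV-GFP, also without overlap, and fell by 1.42 (SE 0.40, 95% interval −2.34 to −0.51, adjusted p = 0.0396). Its call held in 6 of 17 settings. It ended when the replicate number was a block (log2 fold change −1.33, adjusted p = 0.0575), in a comparison whose same-numbered libraries deviated together. It was also lost when any 1 library other than AAV-GFP 3 was left out (adjusted p 0.0584 to 0.14), and without AAV-GFP 2 the log2 fold change was −0.85.
In the other 5 tested genes the highest AAV-GFP-MBNL1∆ library reached above AAV-GFP 3. Aim2 had a log2 fold change of −2.01 (95% interval −3.43 to −0.59, adjusted p = 0.052) and Ifi209 of −2.38 (−4.09 to −0.66, adjusted p = 0.0554). Ifi211, Ifi207 and Ifi204 had log2 fold changes of −1.43, −1.35 and −1.62 (adjusted p = 0.0593, 0.0607 and 0.0622). Ifi213 had 13 counts over AAV-GFP-MBNL1∆ and 38 over AAV-GFP, a ratio of 0.35 in CPM (95% counting interval 0.171 to 0.673). Groups lower without overlap were 2 of the 7, beside 19.2% of genes, and the median of the 7 was −1.43, beside −0.06 over all genes. DESeq2 and limma-voom with library weights each called all 7, beside 30.6% and 50.2% of all genes. Without AAV-GFP 2 the median of the 7 was −0.85, with log2 fold changes of −0.95 for Aim2, −1.09 for Ifi209, −0.66 for Ifi211, −0.67 for Ifi207 and −0.68 for Ifi204.
Of the other p200 genes, Ifi203-ps (log2 fold change −0.78, adjusted p = 0.0105), Ifi202b (−1.96, adjusted p = 0.0415) and Ifi214 (−2.99, adjusted p = 0.0376) passed as lower in AAV-GFP-MBNL1∆ than in AAV-GFP. The call of Ifi203-ps held in 18 of 18 settings. That of Ifi202b held in 7 of 18. It was lost without any 1 library other than AAV-GFP 2 or AAV-GFP 3 (adjusted p up to 0.138) and with the replicate number as a block (adjusted p = 0.0597). No filter on low counts, limma-voom and the 2 groups alone also ended it. Without AAV-GFP 2 the log2 fold change of Ifi202b was −0.99. The call of Ifi214 held in 6 of 16 settings. It was lost with no filter on low counts, with limma-voom and without any 1 library other than AAV-GFP 3 (edgeR, adjusted p up to 0.132 without 1 library). Without AAV-GFP 2 the log2 fold change of Ifi214 was −1.82.

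**Figure D3:**
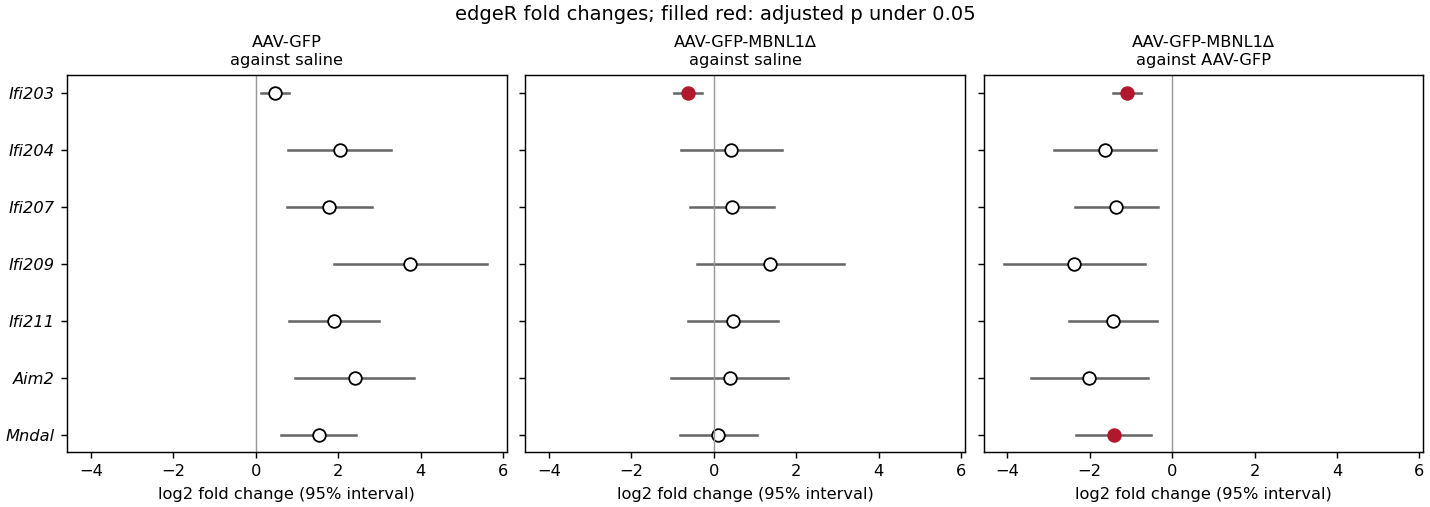
Log2 fold change (horizontal axes) of the 7 tested genes in the 3 comparisons, with 95% intervals from edgeR and filled red points where the adjusted p was under 0.05. The filled points are Ifi203 at −0.63 for AAV-GFP-MBNL1∆ against saline and Ifi203 at −1.09 and Mndal at −1.42 for AAV-GFP-MBNL1∆ against AAV-GFP.

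Within each library the members can be set side by side as differences from their own saline mean in log2 CPM. The median of the 7 differences was 0.50, 0.50 and 0.18 in AAV-GFP-MBNL1∆ 1, 2 and 3 and 1.5, 2.68 and 0.50 in AAV-GFP 1, 2 and 3. AAV-GFP 3 thus lay level with AAV-GFP-MBNL1∆ 1 and 2 by this measure. Ifi203 was the lowest of the 7 in each of the 6 vector libraries, at −0.69, −0.45 and −0.74 in AAV-GFP-MBNL1∆ and 0.37, 0.77 and 0.19 in AAV-GFP. Ifi209 was the highest in each, at 1.66, 1.33 and 0.94 in AAV-GFP-MBNL1∆ and 3.03, 4.8 and 1.27 in AAV-GFP. These orders were seen in the data and have no test of their own.

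**Figure D4:**
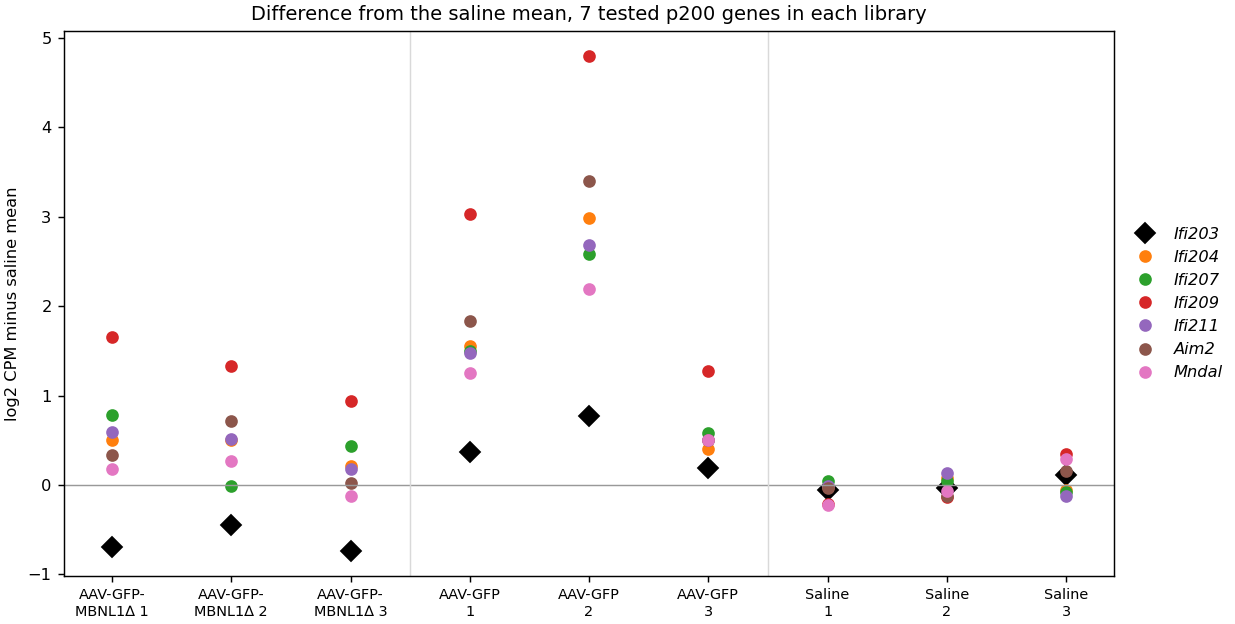
Difference of each of the 7 tested genes from its saline mean, in log2 CPM, in each of the 9 libraries. Ifi203 (black diamonds) is the lowest point in all 6 vector libraries, between −0.74 and −0.45 in AAV-GFP-MBNL1∆ and between 0.19 and 0.77 in AAV-GFP.

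Summing the family sets aside how counted reads were divided among its copies, though reads that fitted several places stay uncounted. All 14 p200 genes together had 49.2, 48.3 and 43 CPM in AAV-GFP-MBNL1∆, 99.2, 198 and 61.8 CPM in AAV-GFP and 49.2, 49.8 and 51.9 CPM in saline. The total was thus higher in every AAV-GFP library than in saline, whereas that of AAV-GFP-MBNL1∆ was at or below the saline range. The make-up of this total differed all the same. Ifi203 took 23.5%, 28.3% and 26% of p200 counts in AAV-GFP-MBNL1∆, 24.5%, 16.1% and 34.6% in AAV-GFP and 36.4%, 36.4% and 38.8% in saline. Ifi203-ps took 10.7%, 15.5% and 16.1% in AAV-GFP-MBNL1∆, 11.8%, 5.13% and 19.3% in AAV-GFP and 22%, 20.1% and 23.2% in saline. Both shares were lower in each vector library than in any saline library.

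**Figure D5:**
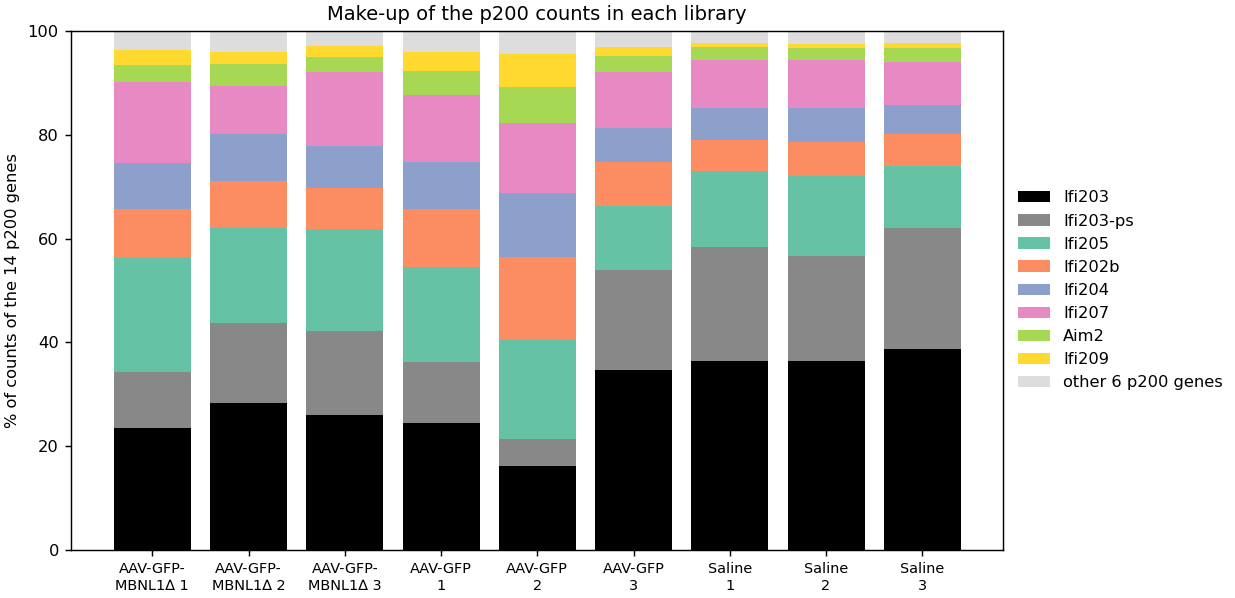
Share of each gene in the counts of the 14 p200 genes, as a percentage of their sum in each of the 9 libraries. The black segment is Ifi203, at no more than 34.6% in any vector library and at 36.4% to 38.8% in saline.

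Partners of these sensors were read from 3 lists, the route from DNA sensing to STING (13 tested genes), inflammasomes (12) and interferon signalling (16). In AAV-GFP against saline no gene of these lists passed edgeR's test, and 9 of 13, 12 of 12 and 12 of 16 had an unadjusted p under 0.05 with a higher level, beside 15.6% of genes. Their median log2 fold changes were 1.28, 2.65 and 1.65. The smallest p-values of the DNA route belonged to Zbp1, a sensor of Z-form nucleic acids (5.93, adjusted p = 0.0841), Irf7, a transcription factor of interferon genes (2.32, adjusted p = 0.0841), Tlr9, the endosomal receptor of CpG DNA (3.55, adjusted p = 0.0846), and Samhd1, a dNTP hydrolase (2.29, adjusted p = 0.0855). Among inflammasome genes they belonged to Il1b (4.92), the sensor subunits Naip2 (2.82) and Nlrp1b (3.27) and the caspase Casp4 (2.58), with adjusted p of 0.0841 to 0.0855. Among interferon genes they belonged to Irf9 (1.62), Ifit1 (2.47) and Isg15 (2.42), among others, each with adjusted p = 0.0841. Without AAV-GFP 2 the log2 fold changes were 4.48 for Zbp1, 1.47 for Irf7, 2.43 for Tlr9, 1.35 for Samhd1, 3.66 for Il1b, 1.77 for Naip2 and Casp4, 2.15 for Nlrp1b, 1.77 for Ifit1 and 1.53 for Isg15. Irf9 codes for an interferon regulatory factor that binds the ISRE, and Ifit1 and Isg15 are classical interferon-induced genes. Ifnb1, which codes for interferon beta, had 0 counts in every library, and Trex1, which degrades cytosolic DNA, is listed at 0 in every library.

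For AAV-GFP-MBNL1∆ against saline, 1 of 13 genes of the DNA route was called lower. Of 16 interferon genes, 1 was called higher and 1 lower, beside 4.76% of all genes called higher and 4.6% called lower. Such small counts are close to those shares. Enpp1, which breaks down the cyclic dinucleotide that activates STING, fell by 0.66 on the log2 scale (adjusted p = 0.0405). In the interferon list Jak2, a kinase of the interferon gamma receptor, rose by 0.41 (adjusted p = 0.0243), and Ifngr2, a chain of that receptor, fell by 0.60 (adjusted p = 0.0363). Enpp1 and Ifngr2 lost their calls without any 1 of the saline libraries, any 1 of the AAV-GFP-MBNL1∆ libraries or AAV-GFP 1 (adjusted p up to 0.136). Jak2 lost its call without saline 2, saline 3 or any 1 of the AAV-GFP-MBNL1∆ libraries (adjusted p up to 0.0982). Enpp1 also lost it with limma-voom (adjusted p = 0.0563) and with the replicate number as a block (edgeR, adjusted p = 0.0663). With upper quartile scaling the calls of Ifngr2 (edgeR, adjusted p = 0.0558) and Jak2 (adjusted p = 0.061) were lost. Of 18 alternative settings, calls held in 9 for Enpp1, 10 for Ifngr2 and 12 for Jak2. No inflammasome gene of the 12 passed, with a median of 0.63 and 0 at an unadjusted p under 0.05. Zbp1 had a log2 fold change of 2.85 (adjusted p = 0.108), Il1b of 1.84 (adjusted p = 0.298) and Ifng, the gene of interferon gamma, of 3.04 (adjusted p = 0.231).

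Against AAV-GFP, AAV-GFP-MBNL1∆ had 6 of 13 genes of the DNA route, 5 of 12 inflammasome genes and 8 of 16 interferon genes lower, and 1 interferon gene (Jak2) higher, beside 10.3% and 10.8% of all genes. The direct partners of AIM2 were chosen for mention after their values were seen. Pycard, the adaptor ASC, averaged 1.14 ± 0.498 CPM in AAV-GFP-MBNL1∆, 6.37 ± 7.12 CPM in AAV-GFP and 0.73 ± 0.0962 CPM in saline (SD, n = 3 each). Its log2 fold change was −2.49 for AAV-GFP-MBNL1∆ against AAV-GFP (adjusted p = 0.0662) and 3.13 for AAV-GFP against saline (adjusted p = 0.114). Casp1, the effector caspase, averaged 2.3 ± 0.624 CPM in AAV-GFP-MBNL1∆, 11.2 ± 10.5 CPM in AAV-GFP and 1.71 ± 0.166 CPM in saline. It fell by 2.29 between AAV-GFP-MBNL1∆ and AAV-GFP (adjusted p = 0.0386). The call of Casp1 held in 8 of 18 alternative settings. It was lost without any 1 library other than AAV-GFP 2 or AAV-GFP 3 (adjusted p up to 0.132). No filter on low counts, limma-voom and the 2 groups alone ended the call of Casp1 as well. Without AAV-GFP 2 its log2 fold change was −1.19.

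Transcripts of immune cells were higher together with the p200 total in AAV-GFP. In AAV-GFP-MBNL1∆ they were also above saline. The p200 total there was at or below the saline range, with Ifi203 and Ifi203-ps lower. The other 10 of the 12 tested p200 genes had log2 fold changes above 0 against saline, with 0 called higher. The summed level of 12 macrophage markers was 226 to 341 CPM in AAV-GFP-MBNL1∆, 274 to 2390 CPM in AAV-GFP and 123 to 154 CPM in saline, with Itgam listed at 0 in every library. The 11 tested macrophage markers all had log2 fold changes above 0 in AAV-GFP against saline (median 3.23) and in AAV-GFP-MBNL1∆ against saline (median 0.97), with none called in either. The 9 T cell markers summed to 6.46 to 15.2 CPM in AAV-GFP-MBNL1∆, 6.09 to 82.1 CPM in AAV-GFP and 0.803 to 1 CPM in saline, where Cd8a was at 0. The T cell markers were called higher in 3 of 9 cases in AAV-GFP-MBNL1∆ against saline, beside 4.76% of all genes and 1 of 7 natural killer cell markers, with a median of 3.96, and in 0 of 9 in AAV-GFP against saline, with a median of 5.77. The 7 B cell markers summed to 2.32 to 8.38 CPM in AAV-GFP-MBNL1∆, 1.64 to 50.7 CPM in AAV-GFP and 0.151 to 0.559 CPM in saline. For the 7 natural killer cell markers the sums were 2.02 to 5.73 CPM in AAV-GFP-MBNL1∆, 4.03 to 54.8 CPM in AAV-GFP and 0.439 to 0.52 CPM in saline. For the 7 neutrophil markers they were 1.56 to 4.12 CPM in AAV-GFP-MBNL1∆, 1.95 to 25.5 CPM in AAV-GFP and 0.545 to 0.871 CPM in saline. Ly6g was at 0 in saline and averaged only 0.0161 CPM in AAV-GFP-MBNL1∆ and 0.0125 CPM in AAV-GFP. Csf3r made up 9.65 CPM of the mean neutrophil sum of 11.5 CPM in AAV-GFP. For the 7 dendritic cell markers the sums were 18 to 22.8 CPM in AAV-GFP-MBNL1∆, 19.2 to 57 CPM in AAV-GFP and 12.4 to 16 CPM in saline. Immune marker sums were thus higher in every vector library than in any saline library for these 6 lists, and the part of such cells in the p200 levels was not tested. Muscle fibre markers, as a check of the labelled tissue, were abundant in every library. Their 10 genes summed to 187000 ± 12700 CPM in AAV-GFP-MBNL1∆, 132000 ± 33500 CPM in AAV-GFP and 184000 ± 20600 CPM in saline (SD, n = 3 each). All 10 had log2 fold changes below 0 in AAV-GFP against saline (median −0.42), with none called. The 7 fibroblast markers summed to 1760 to 2130 CPM in AAV-GFP-MBNL1∆, 1610 to 2900 CPM in AAV-GFP and 1460 to 1750 CPM in saline. The part of these cells in the p200 levels was not tested. The 7 endothelial markers summed to 293 to 361 CPM in AAV-GFP-MBNL1∆, 279 to 394 CPM in AAV-GFP and 411 to 445 CPM in saline, which is the direction in which Ifi203 lay in AAV-GFP-MBNL1∆ but not in AAV-GFP. Their part in the level of Ifi203 was not tested.

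The genes whose pattern over the 9 libraries was most like the mean of the 7 tested members were ranked among 11950 protein-coding genes with a mean of at least 1 CPM. They were Apobec1, an RNA-editing cytidine deaminase (Pearson's r = 0.998), H2-T23, a nonclassical class I histocompatibility gene (0.998), Cd44, a receptor of hyaluronan (0.996), Abracl (0.996) and Psme2, an interferon-induced subunit of the proteasome activator (0.996). Apobec1 was at 3.27 to 5.58 CPM in AAV-GFP-MBNL1∆, 5.84 to 62.6 CPM in AAV-GFP and 3.13 to 3.41 CPM in saline. These r values are a description: the points are 3 groups of 3 libraries with 1 far from the rest, AAV-GFP 2, and among all ranked genes the 90th percentile of r was already 0.92 and the 99th 0.984.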

How the data were processed

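The files hold counts of reads per gene, 1 table per library, as deposited by the authors. Per the labels' protocols, Trizol RNA treated with DNase went into KAPA mRNA libraries, with 250 ng as input. Per the submitters' processing notes, cutadapt 2.10, STAR 2.7.5a, HTSeq 0.12.4, DESeq2 1.30.0 and mm10 were used. The sources used here do not give the annotation release or the strand setting. Reads of antisense or overlapping genes may therefore not be separated.

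Besides 55401 genes, each table has 5 rows without a gene name (16.8% to 18.3% of reads), which were left out. Names and coordinates came from GENCODE M21 (GRCm38), in which 55141 identifiers matched, 54349 with the same version; that of Mndal differed in version, so its exons may differ. Of 30602 genes with a count, 18514 passed edgeR's filter (minimum count 10). All 9 libraries entered the fit by edgeR 4.0.16 (R 4.3.3; scaling by TMM, robust quasi-likelihood F test, 1 mean per group), with Benjamini-Hochberg adjustment over all genes tested in each of 3 comparisons and an adjusted p under 0.05 as the threshold. Adjusted p-values are from edgeR unless another tool is named. CPM are scaled by TMM, and log2 CPM use a prior count of 2. Promoter sequences are from RefSeq (GRCm38.p6).

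The 8 members, the gene lists and the tests were chosen with earlier results of these data known. By rule the text names all p200 genes in the tables, the 4 genes with the smallest p-value in each partner list and vector comparison with saline, and the 5 genes of most similar pattern; Pycard and Casp1 lie outside it, and 1 gene that the rule names is not reported here. Alternatives were other scalings and filters, DESeq2 1.42.0, limma-voom (limma 3.58.1) with and without library weights, the 2 compared groups alone, the replicate number as a block, summed p200 counts, and leaving out each library. Same-numbered libraries of AAV-GFP-MBNL1∆ and AAV-GFP deviated together (correlations 0.108, 0.211 and 0.405, from the data and not the labels). Blocked values therefore stand beside calls that end there. Differently numbered pairs of these groups had −0.4 to 0.206, the highest being AAV-GFP 2 with AAV-GFP-MBNL1∆ 1. The 6 same-numbered pairs with saline had −0.164 to 0.024.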

Additional observations from a re-analysis of the deposited data

Results flagged for a closer look

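The effect of a vector against the same saline libraries differed between the vectors for 2 members by a direct test, AAV-GFP-MBNL1∆ against AAV-GFP. This is beside 21.1% of all genes called in that comparison. For Ifi203 the log2 difference was −1.09 (edgeR, adjusted p = 0.00379). Its log2 fold change against saline was −0.63 with AAV-GFP-MBNL1∆ (adjusted p = 0.0353), a call that held in 11 of 18 alternative settings. With AAV-GFP it lay on the other side of 0, at 0.47, and was not called (adjusted p = 0.143). For Mndal the log2 difference was −1.42 (adjusted p = 0.0396), with 0.10 for AAV-GFP-MBNL1∆ and 1.53 for AAV-GFP against saline. The call of Mndal held in 6 of 17 alternative settings. All libraries of AAV-GFP-MBNL1∆ had the sex-linked expression of males and those of the other groups that of females, so sex and vector cannot be told apart in these differences.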

How the results depend on the processing

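Over the alternatives, single members kept their direction and side of the threshold in 312 cases, came past the threshold in 41, lost it in 18 and turned direction in 1. For AAV-GFP against saline (0 members and 0 genes called), DESeq2 called 6 members and 1705 genes, limma-voom with library weights 7 and 5464, the replicate block 99 genes, and leaving out 1 library gave 0 to 8 members and 0 to 3262 genes. For AAV-GFP-MBNL1∆ against saline (1 and 1734), DESeq2 called 2889 genes, library weights 5458, these groups alone 3 members and 4584 genes, and leaving out 1 library 0 to 1 members and 500 to 4047 genes. For AAV-GFP-MBNL1∆ against AAV-GFP (2 and 3914), members called were 4 with upper quartile scaling, 7 with DESeq2, 1 with limma-voom, 7 with library weights (9294 genes), 1 with these groups alone (1159 genes), 1 with the replicate block and 1 to 7 (826 to 6649 genes) without 1 library. The cause was not tested.

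Log2 fold changes that turned direction were those of Ifi203-ps for AAV-GFP against saline (−0.01 with upper quartile scaling, −0.03 to 0.11 without 1 library) and, for AAV-GFP-MBNL1∆ against saline, Mndal (−0.01 to 0.28 without 1 library) and Ifi214 (−0.04 with limma-voom, −0.42 with library weights, −0.59 to 0.52 without 1 library). None of these was called. With the replicate block, AAV-GFP-MBNL1∆ against AAV-GFP lost the calls of Mndal (−1.33, adjusted p = 0.0575) and Ifi202b (−1.70, adjusted p = 0.0597), while Ifi203, Ifi203-ps, Ifi214 and Casp1 kept theirs. The strict filter (1 CPM in 3 libraries) left out Ifi211 and Mndal, and most settings left out Ifi213. In AAV-GFP against saline, log2 fold changes of 0.47 to 3.75 did not pass for the members. Depth of 0 to 25 counts per library limits Ifi213 and Ifi206.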
